A study of Mus musculus with 3 samples.

Results

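The 34 genes described here carry fatty acids into muscle cells and through mitochondrial oxidation, and they include the genes that set this flux, store its substrate or release it. They were taken by gene symbol from the probes of a mouse array, by matching each probe's RefSeq transcript. No measured value enters that rule, but the list of symbols was drawn up with earlier results of these data known. All 34 genes, of 21613 gene symbols on the array, had at least 1 probe, with 44 probes in all (24 genes had 1 and 10 had 2). The second probe passed the filter for 5 of these 10 (Fabp3, Acsl1, Cpt1b, Decr1 and Etfa). Of the 34 genes, 25 were bright enough on all 3 arrays to be tested, among 7424 genes or unnamed transcripts tested in all.

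The samples were total RNA of the muscle that the labels call SOL, taken to be the soleus, and came from chow-fed C57BL/6 males at 8 weeks of age. Wild-type mice (WT) were compared with mice of the genotype Mettl21cLacZ/LacZ (KO), which carry a LacZ allele of Mettl21c, a member of a family of protein lysine methyltransferases, on both chromosomes. Each of 3 arrays with 2 colours held 1 WT sample in Cy3 (green) and 1 KO sample in Cy5 (red), labelled as biological replicates. The dyes were never exchanged, so a probe's preference for a dye and the genotype cannot be told apart, and this holds for every value below.

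Long-chain fatty acids reach muscle after lipoprotein lipase frees them from circulating lipoproteins, cross the plasma membrane through CD36 and transport proteins, and are bound in the cytosol by FABP3. They are activated to acyl-CoA, pass into the mitochondrial matrix as acylcarnitines, and are shortened there in the repeating steps of beta-oxidation, which hand electrons to the respiratory chain. Malonyl-CoA inhibits the entry step at CPT1, and slow oxidative fibres, which make up much of the soleus, rely on this pathway more than fast glycolytic fibres do.

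The upstream sequences of these genes show features that the arrays can be read beside. RefSeq promoter sequences on assembly GRCm38.p6 were matched for 29 of the 34 genes, with 34 promoters in all, and those of Lpl, Angptl4, Cpt1b, Acaa2 and Decr1 are not printed. The half-site AGGTCA, the core letters bound by PPAR and ERR nuclear receptors, lay on either strand within 250 bases upstream of the start in 7 of the 34 promoters (20.6%), against 14.0% of 32851 mouse promoters over the same length. The genes were Acadm, Acadvl, Cd36, Cpt1a, Plin2, Plin5 and Ucp3. Below are 60 bases around the half-site of 4 of them, chosen to span uptake, mitochondrial entry and the first oxidation step, with AGGTCA or its reverse complement in capitals. They lie at chr3:153944834-153944893 (minus strand) for Acadm, chr11:70015483-70015542 (minus strand) for Acadvl, chr19:3323180-3323239 (plus strand) for Cpt1a and chr5:17836087-17836146 (minus strand) for Cd36.
Acadm: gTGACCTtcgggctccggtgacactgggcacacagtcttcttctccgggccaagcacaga
Acadvl: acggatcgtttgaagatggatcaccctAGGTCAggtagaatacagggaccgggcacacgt
Cpt1a: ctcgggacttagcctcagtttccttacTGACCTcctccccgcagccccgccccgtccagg
Cd36: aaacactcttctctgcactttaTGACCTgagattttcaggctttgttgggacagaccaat

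Hadha and Hadhb, which encode the alpha and beta subunits of the mitochondrial trifunctional protein, are neighbours that start 272 bases apart on opposite strands. The 250 bases upstream of Hadhb, at chr5:30155003-30155252 on the plus strand, lie between those starts. They are shown because the 2 genes share this stretch and their ratios on the arrays can be set beside each other. Capitals mark the GC box GGGCGG, which was searched on both strands.
Hadhb: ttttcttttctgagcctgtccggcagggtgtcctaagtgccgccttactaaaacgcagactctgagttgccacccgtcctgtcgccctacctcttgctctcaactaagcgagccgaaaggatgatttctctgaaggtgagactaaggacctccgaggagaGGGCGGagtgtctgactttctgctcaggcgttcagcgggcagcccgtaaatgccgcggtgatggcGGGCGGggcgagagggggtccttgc
The GC box was present in 20 of the 34 promoters (58.8%) and in 32.7% of all promoters, and the CCAAT box (these letters, both strands) in 16 (47.1%) against 33.9%. A TATA box, searched as TATAAA on both strands, was in 1 (2.94%, Acacb) against 12.4% of all promoters. The motifs were searched separately, and a gene can have several: the half-site, the CCAAT box and the GC box were all found for Cd36, Cpt1a and Plin5. Some genes have more than 1 promoter, and matches were listed by gene, so these motifs need not share a promoter. Etfa, whose mean ratio after normexp and loess was the highest of the 25 tested genes, is shown by the 120 bases before its start, at chr9:55512244-55512363 on the minus strand, with CCAAT and its reverse complement in capitals.
Etfa: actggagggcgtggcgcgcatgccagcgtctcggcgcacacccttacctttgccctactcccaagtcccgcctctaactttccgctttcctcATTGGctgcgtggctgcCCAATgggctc
A match is a description of letters and not of a bound site.

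As a check of the labels, the log2 ratio of KO over WT of Mettl21c was -2.45 (SD 0.48, n = 3 arrays, limma adjusted p = 0.0175). The place of its probe relative to the LacZ allele is not given in the sources used here. Of the non-control spots, 20.4% to 23.6% were well above background in the WT channel and 22.5% to 22.9% in the KO channel. Array 3 stood apart in brightness. Of its 1666 spots whose WT signal was above 500 on the other arrays, 145 (8.70%) lay more than 8-fold below those arrays in both channels, against 1 of 1550 on array 1 and 0 of 1510 on array 2. In a corner of array 3 (with rows and columns each divided into 3 equal parts, the last rows and first columns) the share was 58.5%, against 3.01% elsewhere. Each of 10 listed muscle fibre genes was well above background on at least 1 array, and 7 were tested. The 7 were Acta1, Casq2, Mb, Myl2, Myl3, Tnnc1 and Tnnt1, and not all of them are particular to slow fibres. Their median log2 ratio was 0.20 with 6 of 7 above 0, against -0.34 and 0 of 7 with each array centred on the tested probes in place of loess, and -0.036 and 3 of 7 in the scanner's processed signals.

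None of the 25 tested fatty acid genes passed the limma test at an adjusted p of 0.05, and 3 of the 7424 genes did (0.0404%), all 3 of them lower in KO. Without adjustment, 4 of the 25 had p under 0.05 with a higher level in KO (Etfa, Decr1, Cpt1b and Acaa2), against 5.9% of all genes. Slc25a20 alone had p under 0.05 with a lower level, against 7.53% of all genes. Ratios were above 0 on all 3 arrays for 6 of the 25 (Cpt1b, Acacb, Acadl, Acadm, Decr1 and Etfa), where 17.5% of all genes were, and below 0 on all 3 for 1 (Slc25a20), where 18.3% were. The signs of the other 18 differed between arrays. The mean log2 ratio was above 0 for 15 and below 0 for 10, from -0.23 (Pdk4) to 0.37 (Etfa), with a median of 0.05 beside -0.0027 over all genes. The median of the 25 was 0.13, 0.0083 and 0.05 on arrays 1 to 3, and over 2 arrays it was 0.012 without array 1 and 0.091 without array 2. These signs depend on the scaling within arrays: when loess was replaced by centring each array on the tested probes, 5 of the 25 were above 0 and 20 below. Centring on all spots moved the median of all genes to -0.45 and put all 25 below 0, and the group counts below are not repeated for it.

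**Figure D1:**
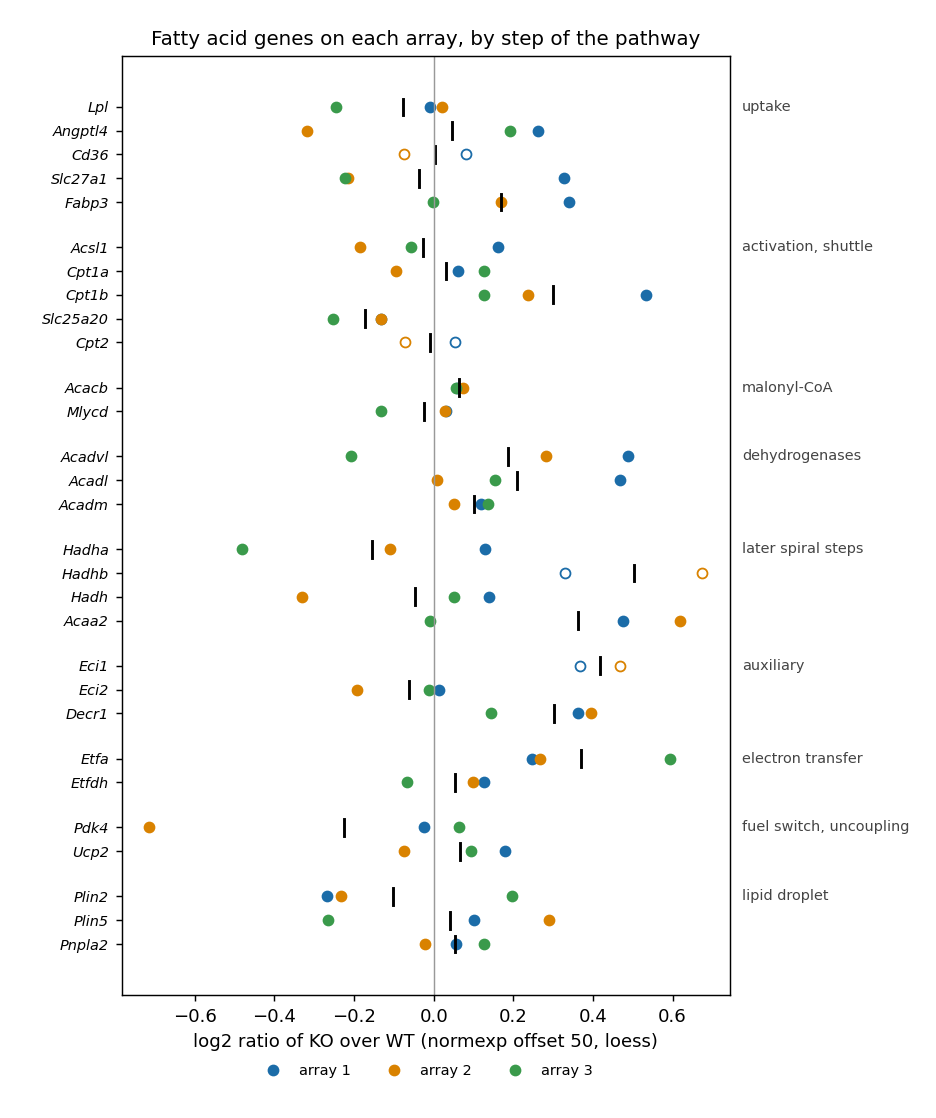
Log2 ratio of KO over WT (x axis) of 29 fatty acid genes on each array (points), by step of the pathway, with a bar at the mean. Open points are the 4 genes with a usable spot on 2 arrays only. On array 3 the spots of Cd36 and Hadhb carried an outlier flag, and those of Cpt2 and Eci1 were not well above background. The 25 tested genes have means from -0.23 (Pdk4) to 0.37 (Etfa), and the 3 points of a gene often lie on both sides of 0; with centring in place of loess 20 of the 25 means are below 0.

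Among the genes of uptake, no gene had a ratio of the same sign on all arrays. Lpl, the lipase that releases fatty acids at the capillary wall, had processed signals of 7404, 8043 and 9636 in WT and 7409, 8462 and 7927 in KO on arrays 1 to 3. The 2 genotypes overlapped, and the widest gap was on array 3. Its log2 ratios were -0.0085, 0.02 and -0.24 (mean -0.08, SD 0.15, n = 3, limma adjusted p = 0.740), and without array 3 the mean was 0.0062. A second Lpl probe gave -0.35 and -0.20 on arrays 1 and 2, and its spot on array 3 carried an outlier flag and was left out. Angptl4, a secreted inhibitor of lipoprotein lipase, had ratios of 0.26, -0.32 and 0.19, so array 2 stood against the other arrays (limma adjusted p = 0.911). Slc27a1, which encodes a fatty acid transport protein of the plasma membrane, had 0.33 on array 1 and -0.22 on both other arrays.

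Fabp3, the cytosolic fatty acid binding protein of heart and skeletal muscle, had processed signals of 2969, 4240 and 3713 in WT and 3576, 4693 and 3675 in KO. KO was the higher sample on arrays 1 and 2 and nearly level with WT on array 3. The mean log2 ratio was 0.17 (SD 0.17, n = 3, limma adjusted p = 0.451), and a second Fabp3 probe averaged -0.00066, with 0.11, -0.0034 and -0.11. In the processed signals the means of these probes were 0.13 and 0.15. Cd36, the membrane fatty acid translocase, could not be tested because its spot on array 3 carried an outlier flag. Its median spot signals in WT were 604.5 and 777.5 on arrays 1 and 2 and 51 on array 3, and in KO 310, 296.5 and 44.5. The array 3 spot was therefore 13.4-fold (WT) and 6.81-fold (KO) below the mean of the other arrays, while the ratios on those arrays were 0.08 and -0.07.

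Other cell types of muscle also express uptake genes, and in whole muscle fewer cells of a type and less RNA per cell cannot be told apart. Of 10 adipocyte markers, 6 were tested, 4 of them above 0 with a median of 0.09, and Lep, Cidec, Adrb3 and Ucp1 stayed at background throughout; with centring on tested probes 3 were above 0. Sums of processed signals, here and below, are over all listed markers, with those at background and flagged spots included. For the 10 adipocyte markers the sum was 14374 to 15878 in WT and 15959 to 16719 in KO. Lpl, itself an uptake gene described here, is in that list. Without it (a list chosen after seeing the data) the sums on arrays 1 to 3 were 6970, 7835 and 5011 in WT. In KO they were 8550, 8053 and 8792, so array 2 was nearly level and the widest gap was on array 3. The adipocyte median was 0.015, -0.063 and 0.34 on arrays 1 to 3. Of 10 endothelial markers, 6 were tested with a median of -0.05 (Tek was not well above background), and the sums were 30494 to 38814 in WT and 30408 to 44935 in KO. All 6 tested macrophage and leukocyte markers were below 0 (5 of 6 with centring on tested probes), with a median of -0.24 (Ptprc and Lyz2 were not well above background) and sums of 7887 to 16143 in WT and 7147 to 11104 in KO. Their median was -0.31, -0.27 and 0.040 on arrays 1 to 3, so array 3 stood on the other side of 0. The 3 tested red blood cell markers were above 0, with a median of 0.21 (0.69 in the processed signals). Of 6 fibroblast markers, 2 were tested, with a median of 0.04 (Pdgfra and Dpt were not well above background). That median was -0.017, -0.18 and 0.32 on arrays 1 to 3, and -0.20 with centring on tested probes. The fibroblast sums on arrays 1 to 3 were 28302, 31431 and 7938 in WT and 22221, 25139 and 10051 in KO. The part of these cells in the values of the fatty acid genes was not tested.

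At activation and entry into mitochondria, the signs differed between genes. Cpt1b, the form of carnitine palmitoyltransferase 1 that predominates in muscle and converts acyl-CoA to acylcarnitine, had processed signals of 9172, 11784 and 18430 in WT and 11283, 11338 and 18495 in KO. In these signals KO was the higher sample on array 1, the lower one on array 2 and nearly level with WT on array 3. After normexp and loess its log2 ratios were 0.53, 0.24 and 0.13, with a mean of 0.30 (SD 0.21, n = 3, unadjusted p = 0.0158, limma adjusted p = 0.254). A second Cpt1b probe gave 0.28, -0.17 and 0.24 (mean 0.12), and the processed signals of the first gave a mean of 0.08. The mean of Cpt1b was 0.18 without array 1 and -0.20 with centring on tested probes in place of loess. Cpt1a, the form that predominates in liver, was measured by 10 spots of 1 probe and had ratios of 0.06, -0.09 and 0.13 (mean 0.03, SD 0.11). The mean of Cpt1a was 0.16 in the processed signals and 0.098 with centring on tested probes, so under both it was above that of Cpt1b.

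Slc25a20, the carrier that exchanges acylcarnitine for carnitine across the inner membrane, stood on the other side. Its processed signals were 506.2, 779.3 and 1071 in WT and 383.0, 629.8 and 541.3 in KO. KO was the lower sample on each array, while the ranges of the 2 genotypes overlapped. The log2 ratios were -0.13, -0.13 and -0.25 (mean -0.17, SD 0.07, n = 3, unadjusted p = 0.0419, limma adjusted p = 0.344), and the processed signals, which carry no offset, gave -0.56. Of the 20 alternative settings 12 moved its value, and its sign held under those 12; among the 25 genes Slc25a20 and Plin2 alone had no change of sign. Acsl1, the main long-chain acyl-CoA synthetase of muscle, had 0.16, -0.19 and -0.06. A second Acsl1 probe was below 0 on each array, at -0.29, -0.31 and -0.11, so the probes of this gene did not give the same picture. In the processed signals the first Acsl1 probe averaged 0.057 and the second -0.69. Cpt2, which reforms acyl-CoA inside the matrix, was below the filter on array 3, and a fit of probes measured on 2 or more arrays, chosen after seeing the data, gave -0.0080 (limma adjusted p = 0.984).

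**Figure D2:**
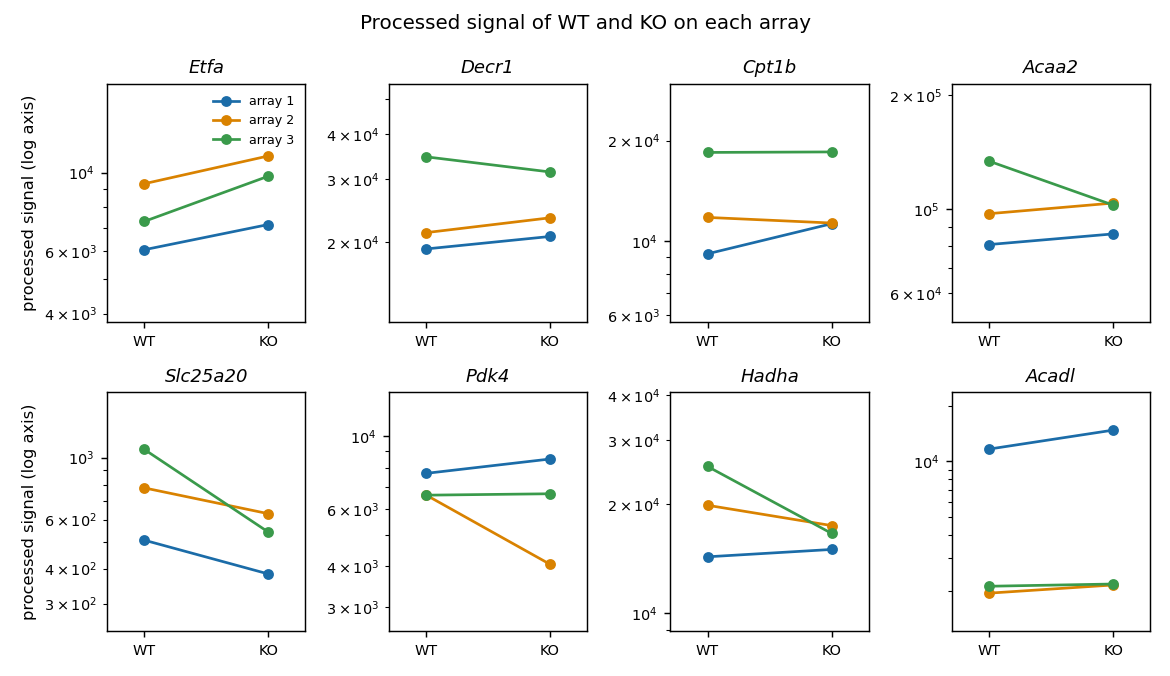
Processed signal of WT and KO (y axis, log scale, arbitrary units, outlier spots left out) for 8 fatty acid genes, with a line joining the 2 samples of each array. The lines of Etfa and Acadl run upward and those of Slc25a20 downward on all 3 arrays, while those of Pdk4 and Hadha differ in direction between arrays. No gene shown passed the limma test.

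Neither of the pair of genes that set malonyl-CoA passed the test. Acacb, the acetyl-CoA carboxylase that makes malonyl-CoA at the mitochondrial surface, had ratios of 0.06, 0.07 and 0.06 (SD 0.01, limma adjusted p = 0.741). In the processed signals Acacb had 0.18, 0.26 and -0.0074 (mean 0.14, SD 0.14), and the mean was 0.16 without background subtraction and -0.0095 with centring on tested probes. Mlycd, the decarboxylase that removes malonyl-CoA, had 0.03, 0.03 and -0.13 (limma adjusted p = 0.920).

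The acyl-CoA dehydrogenases, which begin each turn of beta-oxidation for chains of different length, had positive means in all 3 tested genes, each of which was below 0 with centring on tested probes in place of loess. Acadvl, the very long chain enzyme, had processed signals of 19552, 19858 and 31114 in WT and 21110, 19650 and 19866 in KO. Array 3 carried the largest gap, with WT the higher sample. Its log2 ratios were 0.49, 0.28 and -0.21 (mean 0.19, SD 0.36, limma adjusted p = 0.601), and the processed signals gave a mean of -0.18, so the sign depended on the normalisation. Without array 3 the mean of Acadvl was 0.39, and without array 1 it was 0.038. Acadl, the long chain enzyme, had processed signals of 11670, 1938 and 2112 in WT and 14779, 2145 and 2172 in KO. Array 1 was several times brighter than the other arrays in both genotypes, and KO was the higher sample on each array. Its ratios were 0.47, 0.0083 and 0.15 (mean 0.21, SD 0.23, limma adjusted p = 0.420), with a mean of 0.081 without array 1. Acadm, the medium chain enzyme, had the closest values, 0.12, 0.05 and 0.14 (SD 0.04, limma adjusted p = 0.568). Acads, the short chain enzyme, was well above background on 1 array only and was not tested.

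In the later steps of the spiral, the subunit genes Hadha and Hadhb, whose shared upstream stretch is printed above, did not give like ratios. Hadha, which encodes the subunit with hydratase and dehydrogenase activity, had processed signals of 14323, 19863 and 25413 in WT and 15006, 17461 and 16618 in KO. WT was the higher sample on arrays 2 and 3 and the lower one on array 1. The log2 ratios were 0.13, -0.11 and -0.48 (mean -0.15, SD 0.31, n = 3, limma adjusted p = 0.636), and without array 3 the mean was 0.01. Hadhb, which encodes the thiolase subunit, had ratios of 0.33 and 0.67 on arrays 1 and 2. Its array 3 spot carried an outlier flag and was left out. That spot lay in the corner described above but was not dim. Its median signals were 6016 in WT and 3239 in KO. On arrays 1 and 2 they were 2897 and 4660 in WT and 1556 and 2419.5 in KO. In the fit of probes measured on 2 or more arrays, Hadhb averaged 0.50 (SD 0.24, n = 2, limma adjusted p = 0.197). The processed signals of Hadhb on arrays 1 and 2 were 29912 and 50699 in WT and 30550 and 56295 in KO, a mean log2 ratio of 0.09. The difference between the subunits was not tested.

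Hadh, the short chain hydroxyacyl-CoA dehydrogenase, had ratios of 0.14, -0.33 and 0.05, with array 2 on its own (limma adjusted p = 0.890). Acaa2, the mitochondrial thiolase that closes the spiral, was printed as 10 spots of 1 probe. Its processed signals were 80694, 97288 and 133703 in WT and 86069, 103750 and 102464 in KO. KO was the higher sample on arrays 1 and 2 and the lower one on array 3. The log2 ratios were 0.47, 0.62 and -0.0090 (mean 0.36, SD 0.33, n = 3, unadjusted p = 0.0226, limma adjusted p = 0.284), while the processed signals gave a mean of -0.07. Without array 3 the mean was 0.55 (limma adjusted p = 0.0715), and without array 2 it was 0.23 (limma adjusted p = 0.686).

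The spots of Acaa2 and Cpt1a show how far copies of a probe differed within an array. For Acaa2, 8, 9 and 4 of the 10 spots were without an outlier flag on arrays 1 to 3, and the SD of their log2 ratios was 0.11, 0.13 and 0.10. These SDs are smaller than the distance between array 3 and the other arrays. On array 3 the single Acaa2 spot in the corner had a WT signal of 32, against 10495 to 15292 for the copies elsewhere on the same array, and it was left out. The 3 Cpt1a spots in that corner had WT signals of 27 to 39.5 against 66 to 86 elsewhere, and they were kept, since they had no flag.

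**Figure D3:**
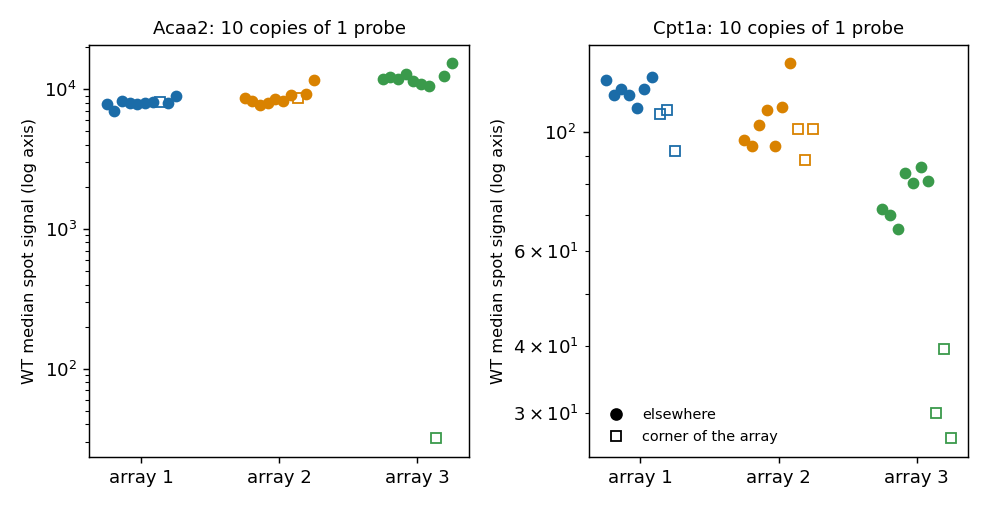
Median WT signal (y axis, log scale) of the 10 spots of 1 Acaa2 probe (left) and 1 Cpt1a probe (right) on each array, with squares for spots in the corner of the array. On array 3 the Acaa2 corner spot is at 32 against 10495 to 15292 elsewhere, and the Cpt1a corner spots are at 27 to 39.5 against 66 to 86.

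Among the auxiliary enzymes, which bring unsaturated fatty acids into the spiral, Decr1 and Eci1 had higher ratios than Eci2 after normexp and loess. The differences were not tested. Mean log2 intensity was 10.9 for Decr1 and 7.73 for Eci2. The median ratio of all genes was 0.20 at 10 and over and -0.048 at 7 to 8. Decr1, the mitochondrial dienoyl-CoA reductase, had processed signals of 19130, 21244 and 34592 in WT and 20728, 23368 and 31380 in KO. KO was the higher sample on arrays 1 and 2 and the lower one on array 3. After normexp and loess the log2 ratios were 0.36, 0.40 and 0.15, above 0 on array 3 as well, with a mean of 0.30 (SD 0.14, n = 3, unadjusted p = 0.00677, limma adjusted p = 0.178), and the processed signals gave 0.04. A second Decr1 probe gave 0.03, 0.04 and 0.06, and with centring on tested probes in place of loess the first averaged -0.31.

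Eci1, an enoyl-CoA isomerase of the matrix, had ratios of 0.37 and 0.47 on arrays 1 and 2. Its median WT signals were 3536.5 and 5220 on those arrays and 27 on array 3, and its KO signals were 1914.5, 2332 and 17. The array 3 spot was thus 159-fold (WT) and 124-fold (KO) below the others, at the level of the background, although it lay outside the corner. With that spot left out Eci1 averaged 0.42 (SD 0.07, n = 2, limma adjusted p = 0.153), and its processed signals gave 0.18 and 0.035 on arrays 1 and 2. Eci2, a related isomerase also found in peroxisomes, had 0.01, -0.19 and -0.01 (limma adjusted p = 0.777).

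In electron transfer from the dehydrogenases, Etfa had the highest mean of the 25 tested genes after normexp and loess. That rank changed with the setting, and the cases given here are examples. The mean of Acaa2 was above that of Etfa without array 3, with array weights and with scaling between arrays. The same was so with flagged spots kept and with probes averaged. With either centring in place of loess several genes lay above Etfa, Ucp2 and Pnpla2 among them. Etfa, which encodes the alpha subunit of the electron transfer flavoprotein, had processed signals of 6058, 9303 and 7281 in WT and 7137, 11143 and 9769 in KO. KO was the higher sample on each array, while the ranges of the genotypes overlapped. Its log2 ratios were 0.25, 0.27 and 0.59, with a mean of 0.37 (SD 0.19, n = 3, unadjusted p = 0.00490, limma adjusted p = 0.159), or 1.29-fold on the offset scale. The processed signals of Etfa gave nearly the same mean of 0.31 (SD 0.10), and a second Etfa probe averaged 0.02, at 0.09, 0.05 and -0.08 (mean 0.14 in the processed signals). With centring on tested probes in place of loess the mean of the first probe was -0.06. Etfdh, the oxidoreductase that passes these electrons to ubiquinone, had 0.13, 0.10 and -0.07 (limma adjusted p = 0.811).

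The 13 genes from the dehydrogenases to electron transfer form the matrix spiral. Of these, 10 were tested, 7 with a ratio above 0 and 3 below, with a median of 0.14 (0.19, 0.08 and 0.02 on arrays 1 to 3) that turned to -0.38 with centring on tested probes in place of loess. The median was 0.25 without array 3, 0.060 without array 1 and 0.011 in the processed signals. The 15 other tested genes had 8 above 0 and a median of 0.03. The probes of the matrix genes were also brighter, with a median log2 intensity of 10.2 against 7.17, which is no measure of relative abundance. On these arrays the ratio moved with brightness after loess. Of the 390 genes with a mean log2 intensity of 10 or more, 81.5% had a ratio above 0, with a median of 0.20. In the same range lay 6 of the fatty acid genes, 4 of them above 0, with a median of 0.14, which is below that of all genes there. Between 7 and 8, by contrast, 36.0% of 1597 genes were above 0. The mean of Acaa2, the brightest of the 25, was 0.14 with a normexp offset of 16 and 0.053 without background subtraction, against 0.36 with the offset of 50. The part of brightness in the ratios of the matrix genes was not tested.

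**Figure D4:**
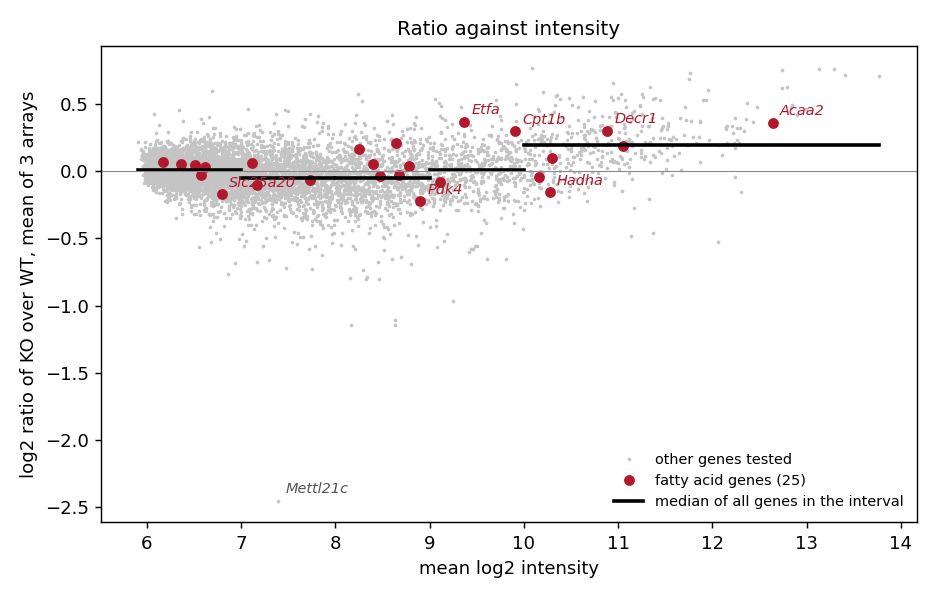
Mean log2 ratio of KO over WT (y axis) against mean log2 intensity (x axis) of all 7424 genes or transcripts tested (grey) and the 25 fatty acid genes (red), with bars at the median of all genes in each interval. In the brightest interval the median is 0.20, and Decr1 and Acaa2, at 0.30 and 0.36, lie there.

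Of the genes that govern fuel choice, Pdk4 had the lowest mean of the 25 and the widest spread after normexp and loess. Pdk4, a kinase that holds pyruvate dehydrogenase inactive when fatty acids are burned, had processed signals of 7706, 6622 and 6609 in WT and 8528, 4061 and 6675 in KO. The genotypes were close on arrays 1 and 3, and KO was the lower sample on array 2. The log2 ratios were -0.02, -0.71 and 0.06 (mean -0.23, SD 0.43, n = 3, limma adjusted p = 0.576), and without array 2 the mean was 0.02. Ucp2, an inner membrane carrier of the uncoupling protein family, had 0.18, -0.07 and 0.09 (limma adjusted p = 0.774). It entered the test through the KO channel alone, which was well above background on 3 arrays against 2 in WT, and the filter favoured a higher KO level. Ucp3, the member of that family typical of skeletal muscle, did not rise clearly above background with either of its probes on any of the 3 arrays. The same was so for the acyl-CoA thioesterases Acot1 and Acot2, which release free fatty acids again, and for the hormone-sensitive lipase Lipe, so no ratio is given for these 4 genes.

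The lipid droplet genes showed no shared direction. Plin2, a perilipin on droplets of most cells, had ratios of -0.27, -0.23 and 0.20 (mean -0.10, SD 0.26, limma adjusted p = 0.740). Plin5, the perilipin of oxidative tissues, had processed signals of 10394, 4140 and 4872 in WT and 9766, 5179 and 3618 in KO. The higher sample was WT on arrays 1 and 3 and KO on array 2, and the spread between arrays was larger than either genotype difference. Its log2 ratios were 0.10, 0.29 and -0.27 (mean 0.04, SD 0.28, limma adjusted p = 0.911). Pnpla2, the lipase that takes the first fatty acid off stored triglyceride, had 0.06, -0.02 and 0.13 (SD 0.07, limma adjusted p = 0.799).

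Another 104 genes of the same pathways were on the array and 61 were tested. None of these passed either, with a median of -0.05. At an unadjusted p under 0.05, 3 of the 61 were higher and 10 lower (5.9% and 7.53% of all genes). On all 3 arrays 7 were higher and 20 lower (17.5% and 18.3% of all genes). The mean ratio was above 0 for 23 of the 61 (37.7%), whose median log2 intensity was 7.76. Of all genes with a log2 intensity of 7 to 8, 36.0% were above 0. Of 18 tested genes of mitochondrial oxidation outside the 34, 4 were above 0 (median -0.11), where 7 of 10 of the matrix genes described above were. The median log2 intensity was 8.19 for the 18 and 10.2 for the matrix genes. Of all genes with a log2 intensity of 8 to 9, 36.8% were above 0, against 81.5% at 10 and over. With centring on tested probes in place of loess the medians of these lists were -0.37 and -0.38, and their difference was not tested. Among the 18, Dbi, which encodes an acyl-CoA binding protein, had a ratio of 0.60 (SD 0.25, limma adjusted p = 0.0883). This is the brighter of 2 tested Dbi probes, at a log2 intensity of 11.9, and all genes at 10 and over had a median ratio of 0.20. Ivd, a dehydrogenase of leucine breakdown, had -0.28 (limma adjusted p = 0.201). The 9 tested peroxisomal genes had a median of -0.03 (0.016 without background subtraction), with Scp2, a lipid transfer protein, at 0.18 (limma adjusted p = 0.353) and Amacr, a racemase of branched acyl-CoAs, at -0.13 (limma adjusted p = 0.480).

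Among 7 other uptake genes with a median of 0.06 (-0.074 with centring on tested probes), Gpihbp1, the endothelial anchor of lipoprotein lipase, had 0.27 (limma adjusted p = 0.192) and Fabp4, the binding protein of adipocytes and capillaries, 0.26 (limma adjusted p = 0.387). Both are also markers in the endothelial or adipocyte lists above. The 13 other genes of droplets, triglyceride and fatty acid synthesis had a median of 0.0055 (-0.15 with that centring), with Fitm1, a protein of droplet formation in muscle, at -0.32 (limma adjusted p = 0.166) and Lpin1, a phosphatidate phosphatase, at -0.20 (limma adjusted p = 0.279). Of 14 tested regulators, 4 were above 0, against 49.1% of all genes and 36.0% of those with a log2 intensity of 7 to 8. The median log2 intensity of the regulators was 7.29. On all 3 arrays 6 of the 14 were below 0 (18.3% of all genes), and their median ratio was -0.06. In the processed signals 7 of the 14 were above 0. The nuclear receptors Esrra, at -0.31 (SD 0.12, limma adjusted p = 0.167), and Ppard, at -0.21 (SD 0.17, limma adjusted p = 0.346), both activate genes of fatty acid oxidation in muscle. Neither passed.

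**Figure D5:**
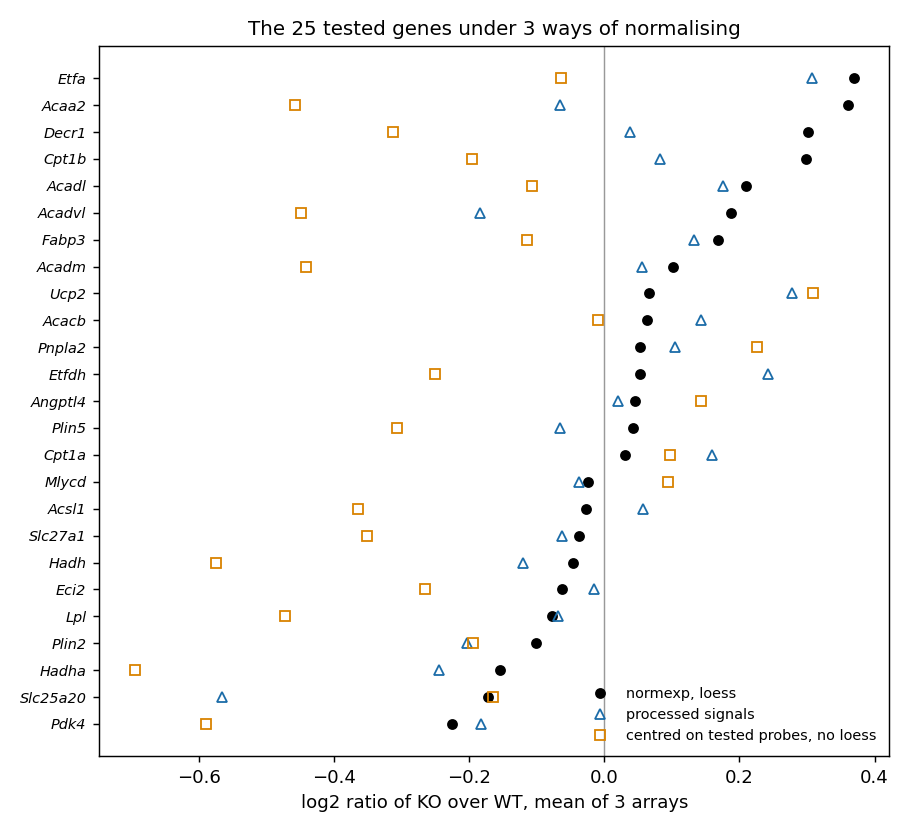
Mean log2 ratio of KO over WT (x axis) of the 25 tested fatty acid genes under normexp and loess (dots), the scanner's processed signals (triangles) and centring on the tested probes without loess (squares), each over 3 arrays. Acaa2 is at 0.36, -0.07 and -0.46 under the 3 settings, while Slc25a20, Plin2, Lpl, Slc27a1, Hadha, Hadh, Eci2 and Pdk4 are below 0 under each.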

How the data were processed

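The deposited scanner files hold the intensity of each spot in both channels, and their processed signals were background-subtracted and dye-normalised, per the file headers (Feature Extraction 12.0.3.1; the submitters' processing notes name 11.5). The deposited log10 ratio per spot served as an alternative. Genome build is not given in the sources used here; of 29472 RefSeq probes 28664 were named through a RefSeq table of GRCm38.p6. Median spot intensity was corrected with normexp (offset 50, which shrinks ratios of dim probes) and loess in limma 3.58.1 (R 4.3.3, with the package data.table at version 1.17.8), leaving out outlier spots (536, 572 and 1002 on arrays 1 to 3). Spots of a probe were averaged. Of 55681 probes 8391 were tested, those well above background in 1 channel on all 3 arrays, and a gene took its probe of highest average intensity. Mean log2 ratios were tested against 0 with eBayes, two-sided, with Benjamini-Hochberg adjustment over 7424 genes. Each array pairs a WT with a KO sample, so the ratio carries the pairing. Steps were tested on simulated data with channels of equal gain. All 34 genes are given, and at most the 2 genes of smallest p from each other list. Members and lists were chosen with earlier results of these data known. The number of arrays limits the precision. Alternatives changed background, offset, scaling, filter, flags, moderation, threshold and arrays used; 3 that concern array 3 were chosen after seeing the data.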

Additional observations from a re-analysis of the deposited data

How the results depend on the processing

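Against 3 genes called, the count was 98 at an adjusted p of 0.1, 25 with an offset of 16, 5 without background subtraction, 68 with scaling between arrays, 85 with robust moderation, 62 with array weights, 1 with flagged spots kept and 1 with probes averaged. It was 0 for processed signals, deposited ratios, no filter, a filter on both channels, the 6 channels without the replicate block, and the 3 settings on array 3 chosen after seeing the data, and 0 to 16 without 1 array. Centring in place of loess called 4908 genes, all lower, on all spots, where the median of all genes moved to -0.45 and that of the 25 to -0.69, with 22 of the 25 called. On the tested probes it called 2658 (1014 higher, 1644 lower) and 10 of the 25 (Acaa2, Acadm, Acadvl, Acsl1, Decr1, Hadh, Hadha, Lpl, Pdk4 and Ucp2), with a median of -0.25. Ucp2, at 0.31 there, had entered the test through its KO channel alone. The cause was not tested. No other setting called any of the 25.

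Of 499 values of these genes over 20 alternatives, 193 equalled the value reported, since the setting left that gene's ratio as it was. Of the 306 others, 254 kept their sign and 52 did not. Centring on all spots gave Angptl4 -0.30, Fabp3 -0.55, Cpt1a -0.34, Cpt1b -0.63, Acacb -0.45, Acadvl -0.89, Acadl -0.55, Acadm -0.88, Acaa2 -0.90, Decr1 -0.75, Etfa -0.50, Etfdh -0.69, Ucp2 -0.13, Plin5 -0.75 and Pnpla2 -0.21. On tested probes it gave Fabp3 -0.11, Cpt1b -0.20, Acacb -0.0095, Mlycd 0.094, Acadvl -0.45, Acadl -0.11, Acadm -0.44, Acaa2 -0.46, Decr1 -0.31, Etfa -0.064, Etfdh -0.25 and Plin5 -0.31. Processed signals and deposited ratios gave Acsl1 0.057, Acadvl -0.18, Acaa2 -0.066 (-0.065 for deposited ratios) and Plin5 -0.065, no background subtraction gave Slc27a1 0.0092, Acsl1 0.0046 and Mlycd 0.016, and array weights gave Angptl4 -0.022. With 1 array left out, which leaves 2, the ranges that crossed 0 were -0.13 to 0.0062 for Lpl, -0.062 to 0.23 for Angptl4, -0.22 to 0.055 for Slc27a1, -0.12 to 0.052 for Acsl1, -0.016 to 0.094 for Cpt1a, -0.052 to 0.029 for Mlycd, -0.30 to 0.010 for Hadha, -0.14 to 0.095 for Hadh, -0.10 to 0.0020 for Eci2, -0.37 to 0.019 for Pdk4 and -0.082 to 0.20 for Plin5. The lowest adjusted p of any of the 25 in these 3 fits was 0.0715 (Acaa2, without array 3). Signal over background limits Acads, Cpt2, Acot1, Acot2, Ucp3 and Lipe.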
